A study of Mus musculus with 49 samples.

Results

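*Cish* and the genes *Socs1* to *Socs7* encode the 8 proteins of the suppressor of cytokine signalling (SOCS) family, and their mRNA was followed here in CD8+ T cells of *Stat5* mutant mice. The genes were chosen by symbol, with earlier results of these data known, and are 8 of the 23992 gene symbols in the deposited tables, each read from its longest transcript. *Cish*, *Socs3*, *Socs4*, *Socs5*, *Socs6*, and *Socs7* have 1 transcript in these tables, *Socs1* has 2, and *Socs2* has 4. All 8 genes passed the filter on low counts and are among the 15566 genes tested.

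A SOCS protein carries an SH2 domain, which binds phosphorylated tyrosines, and a SOCS box, which recruits elongins, a cullin, and a RING protein into a ubiquitin ligase. CIS (the product of *Cish*), SOCS1, SOCS2, and SOCS3 are the classical feedback inhibitors of JAK-STAT signalling, since cytokines induce their genes through STAT proteins and the proteins then damp the receptor or its JAK kinases, whereas SOCS4, SOCS5, SOCS6, and SOCS7 are best known from receptor tyrosine kinase signalling. In T cells IL-2 signals through JAK1, JAK3, STAT5A, and STAT5B, and *Cish* is a textbook STAT5 target.

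RNA-seq was performed on splenic CD8+ T cells of 2 mouse lines at 0, 4, 24, and 48 hr of culture with recombinant human IL-2 at 500 IU/ml. In the *Stat5a* line the KI cells were homozygous for STAT5A Y694F, and in the *Stat5b* line for STAT5B Y699F, so that 1 STAT5 protein lacked the tyrosine that is phosphorylated while the other was intact. The WT cells of each line came from WT littermates, the lines were kept on a C57BL/6J background, and the mice were adults of both sexes. Every library at 4, 24, and 48 hr was cultured with IL-2 and none at 0 hr was, so that IL-2 and time in culture cannot be told apart, and a change with IL-2 stands below for both. Line, genotype, and time gave 16 groups, each with 3 libraries, except that *Stat5a* KI at 4 hr is given with 2. Each allele was made by CRISPR/Cas9 and is represented by a single line whose edit includes silent nucleotide changes, and it was present in every cell of the mouse rather than in T cells only. The cells were isolated by negative selection, and neither the labels nor the methods state whether the libraries of a group came from separate mice, so p-values measure the spread between these libraries, which may be technical.

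There were 2 libraries that stood apart from the rest. Replicate 3 of *Stat5a* KI at 4 hr had 1028515 reads on the longest transcripts, 5.675% of its mapped reads, and is left out of the values below. The WT library with replicate number 2 at 4 hr in the *Stat5a* line had the lowest depth of the other 47, with 17369112 reads or 44.863% of its mapped reads, against a median of 41410666 reads and 75.285% and a highest value of 60200653 reads. It is included, and most log2 fold changes of single genes that rest on it are given with and without it. Counts of called genes at 4 hr, shares of all genes, medians, and overlaps are given with it only. Levels are given as RPKM, reads scaled to transcript length and sequencing depth, and whether groups overlap is read from the RPKM. On the CPM with TMM scaling that the fit uses, 14 of 160 such positions of the 8 genes differed, and those given below are named. Differences are given as log2 fold changes with their standard error (SE) from edgeR's quasi-likelihood test on the counts, with p adjusted over all 15566 genes by the Benjamini-Hochberg method. To be called, a gene had to differ at least 2-fold with an adjusted p no higher than 0.05. The 8 genes had between 110 and 11671 reads in each of the 47 libraries. Counting error was not small beside the spread between libraries in every group. An example is *Socs2* in the *Stat5b* line WT cells at 4 hr, with 498 to 616 reads and an RPKM of 4.35 to 4.58. Libraries of these bulk samples were made from a fixed amount of RNA, and fewer cells of a type and less RNA per cell cannot be told apart.

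Before IL-2 the family's mRNA was mostly *Socs3*. The mean RPKM of the 8 genes summed to 89.0 in the *Stat5a* line WT cells and 103.6 in the *Stat5b* line WT cells at 0 hr, of which *Socs3* made up 51.4% and 60.8% and *Socs2*, the least abundant, 1.34% and 1.36%. In all 12 groups with IL-2, *Socs1* had the highest mean RPKM of the family. At 48 hr in WT cells the sums were 221.8 and 217.7, with *Socs1* at 45.6% and 42.1% and *Cish* at 23.4% and 26.4% (*Stat5a* and *Stat5b* line). At the same time the sums in KI cells were 190.0 in the *Stat5a* and 140.9 in the *Stat5b* line, and *Cish* made up 11.6% and 7.4%. IL-2 therefore went with a change in the leading member as well as in the sum, and these shares are descriptions over group means.

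**Figure D1:**
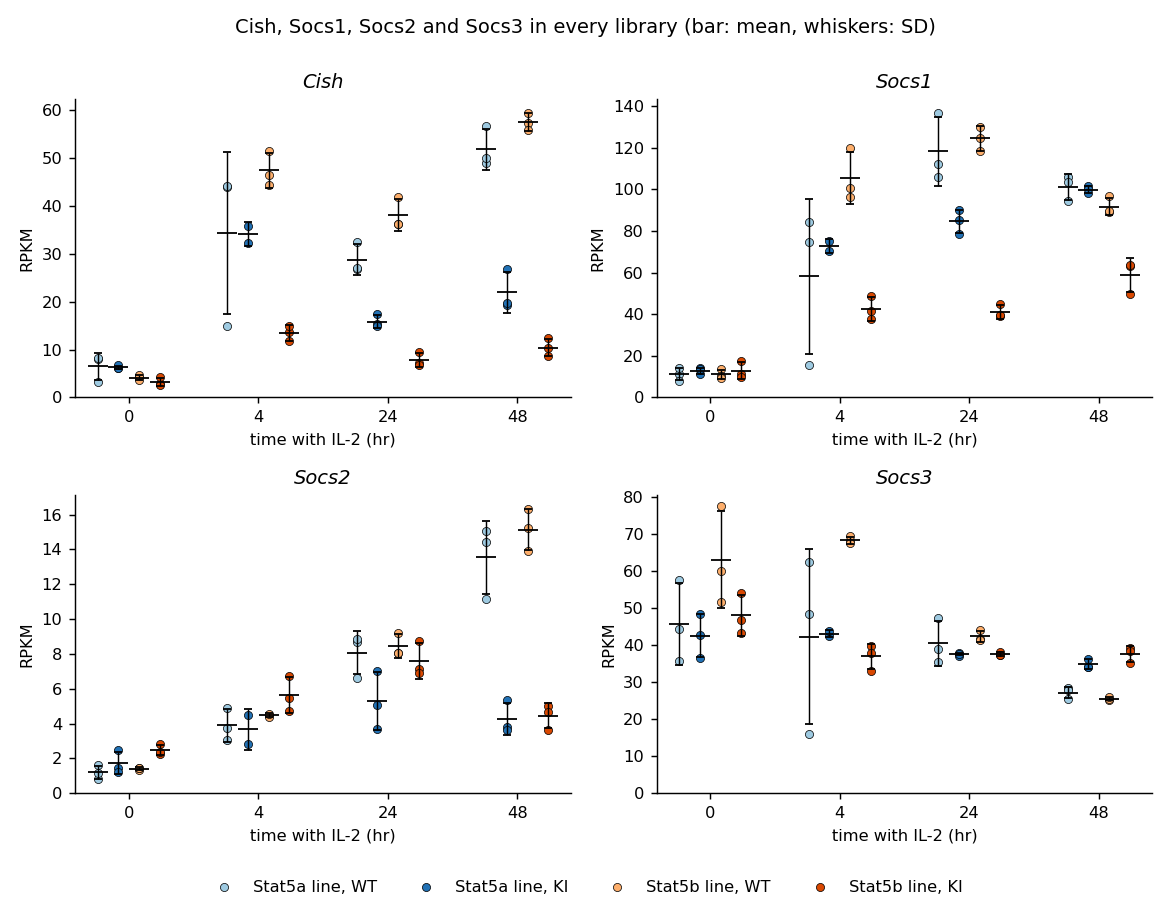
RPKM (linear axes from 0) of *Cish*, *Socs1*, *Socs2*, and *Socs3* at 0, 4, 24, and 48 hr of IL-2, with a point for each library, a horizontal bar at the group mean, and whiskers of 1 SD, in WT and KI cells of both lines. In the *Stat5b* line the *Cish* mean at 48 hr is 57.5 in WT and 10.4 in KI cells, and the lowest WT points of *Cish*, *Socs1*, and *Socs3* at 4 hr are those of the shallow library.

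*Cish* encodes CIS, which binds the IL-2 receptor and other cytokine receptors that activate STAT5. The gene lies on chromosome 9 at 107296659-107302784 (GRCm38.p6). STAT dimers bind palindromes of the form TTCNNNGAA (the same on both strands), and the RefSeq promoter window of *Cish* holds 2 of them, starting at bases 1 and 12 of the annotated transcript. It is printed from its first base to the end of the second match, 270 of its 300 bases, because this is the family gene with the largest IL-2 response in the *Stat5b* line WT cells at 48 hr, and capitals mark the motif matches (plus strand, chr9:107296409-107296678).
Cish: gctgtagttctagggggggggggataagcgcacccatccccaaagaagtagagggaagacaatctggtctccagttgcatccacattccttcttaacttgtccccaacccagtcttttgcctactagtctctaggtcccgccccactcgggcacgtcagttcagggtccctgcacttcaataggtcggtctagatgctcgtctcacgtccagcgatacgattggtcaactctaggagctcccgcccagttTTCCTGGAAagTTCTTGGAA
Of all 32851 promoter windows of 300 bases in the table, 2726 (8.3%) hold at least 1 such match and 150 (0.457%) hold at least 2. The windows of 4 of the 8 genes were read from the table (*Cish*, *Socs1*, *Socs3*, and *Socs4*). No match lies in the windows of *Socs1* and *Socs4*, which says only that these letters are not in those 300 bases, and a match is a description of the sequence, not a site of binding.

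*Cish* mRNA rose with IL-2 at every time in both lines and genotypes, and in the *Stat5b* line the KI level was below that of WT cells at each time with IL-2. In WT cells of the *Stat5b* line its RPKM was 4.21, 3.67, and 4.60 at 0 hr and 51.5, 46.3, and 44.3 at 4 hr. It was 36.2, 41.8, and 36.2 at 24 hr and 57.3, 55.8, and 59.4 at 48 hr, so that all 9 IL-2 libraries lay above all 3 libraries at 0 hr. The log2 fold change against 0 hr was 3.34 (SE 0.231, adjusted p = 1.12e-14 from edgeR) at 4 hr, 3.01 (SE 0.229, adjusted p = 6.54e-14) at 24 hr, and 3.61 (SE 0.234, adjusted p = 2.49e-16) at 48 hr, a 12.2-fold rise. The corresponding RPKM in *Stat5b* KI cells was 2.89, 4.18, and 2.63 at 0 hr and 13.7, 14.9, and 11.7 at 4 hr. It was 7.19, 9.39, and 6.74 at 24 hr and 10.3, 12.3, and 8.70 at 48 hr. The KI libraries lay below every WT library at 4, 24, and 48 hr and overlapped with them at 0 hr. The KI mean was 77.8% of the WT mean at 0 hr, 28.4% at 4 hr, 20.4% at 24 hr, and 18.1% at 48 hr. In *Stat5b* KI cells *Cish* fell by 1.93 (SE 0.215, adjusted p = 1.66e-08 from edgeR) on the log2 scale against WT at 4 hr, by 2.32 (SE 0.220, adjusted p = 4.84e-11) at 24 hr, and by 2.54 (SE 0.220, adjusted p = 1.95e-12) at 48 hr. At 0 hr the log2 fold change was −0.43 (adjusted p = 0.19 from edgeR).

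The difference between the genotypes of the *Stat5a* line was smaller and seen later. The RPKM of *Cish* in WT cells was 8.04, 8.24, and 3.20 at 0 hr and 44.0, 14.8, and 44.0 at 4 hr. It was 26.8, 27.1, and 32.5 at 24 hr and 48.8, 56.7, and 49.9 at 48 hr, and the low value at 4 hr is the shallow library named above. In *Stat5a* KI cells it was 6.21, 6.08, and 6.68 at 0 hr, 35.8 and 32.3 at 4 hr, 17.3, 15.3, and 14.9 at 24 hr, and 26.9, 19.4, and 19.7 at 48 hr. The KI libraries lay within the range of the WT libraries at 0 and 4 hr and below it at 24 and 48 hr. With IL-2, *Cish* rose in WT cells by log2 fold changes of 2.36 (SE 0.221) at 4 hr, 1.98 (SE 0.218) at 24 hr, and 2.79 (SE 0.223) at 48 hr, all called in edgeR, and the value at 4 hr was 2.59 without the shallow library. Against WT, *Cish* in *Stat5a* KI cells fell by 1.29 at 48 hr (SE 0.210, adjusted p = 4.4e-06 from edgeR), where the KI mean was 42.4% of the WT mean. The log2 fold change was −0.93 (SE 0.210, adjusted p = 0.0017 from edgeR) at 24 hr, which is short of the 2-fold threshold. It was −0.05 at 0 hr and −0.21 at 4 hr (adjusted p = 0.939 and 0.513 from edgeR), or −0.44 at 4 hr without the shallow library.

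Ordered by mean RPKM over the 16 groups, *Cish* was highest in the *Stat5b* line WT cells at 48 hr (57.5 ± 1.8, SD, n = 3), the WT group at 48 hr in the *Stat5a* line (51.8 ± 4.28), and the *Stat5b* line WT cells at 4 hr (47.4 ± 3.73). Neighbours in this order overlapped in 12 of the 15 steps. The steps without overlap lay below these 3 groups, below *Stat5a* KI at 48 hr (22.0 ± 4.24), and below *Stat5a* KI at 0 hr (6.32 ± 0.313). *Stat5b* KI cells with IL-2 had means of 13.4, 7.77, and 10.4 at 4, 24, and 48 hr and thus ranked beneath all WT and *Stat5a* KI groups with IL-2.

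*Socs1* encodes SOCS1, which binds JAK kinases and inhibits their catalytic activity. The gene lies on chromosome 16 at 10783808-10785536. It reached the highest levels of the family, and its difference between *Stat5b* KI and WT cells was widest at 4 and 24 hr. In WT cells of the *Stat5b* line the RPKM was 13.7, 10.2, and 9.42 at 0 hr and 96.2, 100.8, and 119.7 at 4 hr. It was 118.5, 130.1, and 124.6 at 24 hr and 88.9, 89.6, and 96.5 at 48 hr, so that the libraries at 48 hr lay below all those at 24 hr. The log2 fold change against 0 hr was 3.07 (SE 0.247, adjusted p = 5.26e-13 from edgeR) at 4 hr, 3.30 (SE 0.249, adjusted p = 5.12e-14) at 24 hr, and 2.87 (SE 0.245, adjusted p = 5.51e-13) at 48 hr. Their *Stat5b* KI counterparts had an RPKM of 11.4, 17.4, and 9.91 at 0 hr, 41.6, 48.8, and 37.5 at 4 hr, 38.9, 44.7, and 39.4 at 24 hr, and 63.4, 63.7, and 49.6 at 48 hr. The KI libraries overlapped with WT at 0 hr and lay below all WT libraries at the 3 later times. *Socs1* fell by 1.42 (SE 0.229, adjusted p = 1.26e-05 from edgeR) against WT at 4 hr and by 1.63 (SE 0.230, adjusted p = 2.55e-07) at 24 hr. At 48 hr its log2 fold change was −0.72 (SE 0.226, adjusted p = 0.006 from edgeR), short of 2-fold, and the KI mean was 64.2% of the WT mean after 40.3% at 4 hr and 33% at 24 hr.

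For *Socs1* in the *Stat5a* line, no difference between the genotypes was called at any time. The RPKM in WT cells was 11.5, 14.0, and 8.03 at 0 hr, 74.6, 15.7, and 84.1 at 4 hr, 111.9, 105.7, and 136.8 at 24 hr, and 105.8, 103.5, and 94.2 at 48 hr. In *Stat5a* KI cells it was 11.1, 13.9, and 13.5 at 0 hr, 70.2 and 75.3 at 4 hr, 89.9, 85.1, and 78.6 at 24 hr, and 101.5, 99.9, and 98.2 at 48 hr. The KI libraries lay below the WT libraries only at 24 hr, with a log2 fold change of −0.55 (SE 0.225, adjusted p = 0.0856 from edgeR). At 48 hr the value was −0.07 (SE 0.224, adjusted p = 0.836 from edgeR), and the KI mean was 98.7% of the WT mean. At 4 hr it was 0.17, and −0.20 without the shallow WT library, in which *Socs1* was at 15.7. *Socs1* rose with IL-2 in WT cells by log2 fold changes of 2.29 (SE 0.240) at 4 hr, 3.23 (SE 0.247) at 24 hr, and 2.97 (SE 0.245) at 48 hr, all called, with 2.65 at 4 hr without the shallow library. Over the 16 groups, 11 of the 15 neighbouring steps of *Socs1* overlapped, and the widest step in the means was that between the 12 IL-2 groups, of which *Stat5b* KI at 24 hr was lowest (41.0 ± 3.21, SD, n = 3), and the 4 groups at 0 hr (11.1 to 12.9).

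*Socs2* encodes SOCS2, best known as an inhibitor of growth hormone signalling. The gene lies on chromosome 10 at 95383903-95417321. It rose step by step with the time of IL-2 in WT cells and was called lower in KI cells of both lines at 48 hr only. In WT cells of the *Stat5b* line the RPKM was 1.31, 1.47, and 1.43 at 0 hr, 4.52, 4.35, and 4.58 at 4 hr, 8.08, 8.07, and 9.23 at 24 hr, and 15.2, 16.3, and 13.9 at 48 hr. Each of these times lay above the one before without overlap. The log2 fold changes against 0 hr were 1.5 (SE 0.223, adjusted p = 5.56e-07 from edgeR), 2.40 (SE 0.225), and 3.26 (SE 0.230, adjusted p = 2.87e-15). KI cells of this line had an RPKM of 2.26, 2.82, and 2.38 at 0 hr, 4.70, 6.73, and 5.46 at 4 hr, 7.13, 8.75, and 6.88 at 24 hr, and 3.66, 5.04, and 4.67 at 48 hr. The KI libraries lay above all WT libraries at 0 and 4 hr, overlapped with them at 24 hr, and lay below all of them at 48 hr. On TMM-scaled CPM the genotypes overlapped at 4 hr, with 12.4, 17.8, and 14.9 in KI and 13.1, 12.6, and 13.1 in WT cells. Against WT, *Socs2* had a log2 fold change of 0.76 (SE 0.225, adjusted p = 0.012 from edgeR) at 0 hr, short of 2-fold, of 0.22 at 4 hr, and of −0.18 at 24 hr, and it fell by 1.84 (SE 0.212, adjusted p = 1.81e-09 from edgeR) at 48 hr, to 29.4% of the WT mean.

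In WT cells of the *Stat5a* line the RPKM of *Socs2* was 0.848, 1.14, and 1.60 at 0 hr, 3.77, 3.05, and 4.90 at 4 hr, 6.65, 8.67, and 8.87 at 24 hr, and 11.1, 14.4, and 15.1 at 48 hr. In *Stat5a* KI cells it was 2.46, 1.48, and 1.24 at 0 hr, 4.52 and 2.86 at 4 hr, 7.05, 5.09, and 3.72 at 24 hr, and 5.34, 3.81, and 3.66 at 48 hr. The genotypes overlapped at 0, 4, and 24 hr, and at 48 hr every KI library was below every WT library, as it was also at 24 hr on TMM-scaled CPM, by 19.8 for the highest KI against 19.9 for the lowest WT library. *Socs2* fell by 1.72 at 48 hr (SE 0.211, adjusted p = 3.08e-08 from edgeR), to 31.5% of the WT mean, and its log2 fold change at 24 hr was −0.68 (adjusted p = 0.0192 from edgeR), short of 2-fold. At 0 hr, which enters the differences of the responses, KI against WT was 0.49 on the log2 scale (SE 0.229, edgeR adjusted p = 0.277). With IL-2 it rose in WT cells by log2 fold changes of 1.73 (SE 0.225) at 4 hr, 2.57 (SE 0.225) at 24 hr, and 3.28 (SE 0.229) at 48 hr, and the value at 4 hr was 1.66 without the shallow library. *Socs2* was highest in the 2 WT groups at 48 hr (15.1 ± 1.2 and 13.6 ± 2.11, SD, n = 3), which overlapped each other and no other group, and 12 of its 15 neighbouring steps overlapped.

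*Socs3* encodes SOCS3, which binds the gp130 chain of the IL-6 receptor family and inhibits JAK kinases. The gene lies on chromosome 11 at 117966079-117970336. Its RefSeq promoter window is set at the start of the curated transcript (117969366), 970 bases inside the end of the gene, which 2 predicted transcripts reach. The window holds 1 match to TTCNNNGAA, 154 bases before the curated start, in an intron of one predicted transcript and an exon of the other. The stretch around it is shown beside that of *Cish* because *Socs3* was the one gene among the classical feedback inhibitors that did not rise with IL-2 (minus strand, chr11:117969502-117969530, match in capitals).
Socs3: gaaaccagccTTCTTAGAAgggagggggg

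In WT cells of the *Stat5b* line the RPKM of *Socs3* was 77.4, 59.9, and 51.7 at 0 hr, 68.0, 69.4, and 67.5 at 4 hr, 41.8, 44.0, and 41.3 at 24 hr, and 25.3, 25.5, and 25.9 at 48 hr. The libraries at 24 and 48 hr lay below all those at 0 hr. The log2 fold change against 0 hr was −0.06 (adjusted p = 0.792 from edgeR) at 4 hr and −0.76 (SE 0.171, adjusted p = 0.000219) at 24 hr, and *Socs3* fell by 1.48 (SE 0.174, adjusted p = 1.69e-09 from edgeR) at 48 hr. In *Stat5b* KI cells the RPKM was 46.7, 54.0, and 43.3 at 0 hr, 39.8, 37.9, and 33.1 at 4 hr, 37.4, 38.1, and 37.3 at 24 hr, and 39.3, 38.5, and 35.1 at 48 hr. The KI libraries overlapped with the WT libraries at 0 hr, lay below all of them at 4 and 24 hr, and above all of them at 48 hr. On TMM-scaled CPM they lay below all WT libraries at 0 hr too, by 204.6 for the highest KI against 204.7 for the lowest WT library. Against WT, the log2 fold change of *Socs3* at 4 hr was −1.0 (SE 0.172, adjusted p = 3.17e-05 from edgeR), which sits at the 2-fold threshold. This value ranged from −1.02 to −0.87 over 56 alternative settings and passed the threshold in 16 of them, with an adjusted p of at most 0.00632 in edgeR, DESeq2, and limma alike. At 0, 24, and 48 hr the log2 fold changes were −0.46, −0.20, and 0.48 (adjusted p = 0.0479, 0.345, and 0.0152 from edgeR), none of them 2-fold.

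In the *Stat5a* line the RPKM of *Socs3* in WT cells was 44.2, 57.6, and 35.6 at 0 hr, 48.5, 16.1, and 62.3 at 4 hr, 38.8, 35.4, and 47.3 at 24 hr, and 28.3, 25.5, and 27.8 at 48 hr. In *Stat5a* KI cells it was 36.5, 42.8, and 48.3 at 0 hr, 42.4 and 43.7 at 4 hr, 37.2, 37.9, and 37.7 at 24 hr, and 34.0, 36.4, and 34.0 at 48 hr. At 48 hr the WT libraries lay below those at 0 hr, with a log2 fold change of −0.96 (SE 0.172, adjusted p = 6.69e-06 from edgeR), just short of 2-fold. The KI libraries lay above the WT libraries at 48 hr only, by 0.31 on the log2 scale (edgeR adjusted p = 0.151), and no difference of *Socs3* between the genotypes was called in this line. The value at 4 hr in WT cells was −0.18, and 0.10 without the shallow library, in which *Socs3* was at 16.1. Of the 15 neighbouring steps in the order of the 16 group means, 14 overlapped, and the step without overlap lay above the 2 WT groups at 48 hr (27.2 ± 1.53 and 25.6 ± 0.312, SD, n = 3).

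The genes *Socs4*, *Socs5*, *Socs6*, and *Socs7* changed by less. They lie on chromosomes 14 (47276920-47296102), 17 (87107278-87137647), 18 (88865169-88894364), and 11 (97362292-97398542), with *Socs7* 3.38 Mb from the edited *Stat5* genes and *Socs3*, on the same chromosome, 17.08 Mb from them. *Socs4*, whose product acts on EGF receptor signalling, had an RPKM of 7.69 to 8.52 at 0 hr and 13.7 to 14.3 at 48 hr in WT cells of the *Stat5b* line, without overlap. *Socs5*, whose product has been tied to EGF and IL-4 receptor signalling, had its highest level at 4 hr, with an RPKM of 2.61 to 2.83 at 0 hr, 5.41 to 6.68 at 4 hr, and 3.03 to 3.14 at 48 hr in the same cells. *Socs6*, whose product targets receptor tyrosine kinases, was at 6.18 to 6.90 at 0 hr and 5.34 to 5.45 at 48 hr. *Socs7* was at 6.32 to 6.89 at 0 hr and 5.32 to 5.61 at 48 hr. Thus the RPKM of *Socs4* lay higher and that of *Socs6* and *Socs7* lower at 48 hr than at 0 hr in these cells, each without overlap. *Socs5* lay higher on the RPKM scale only, since on TMM-scaled CPM it was at 17.5 to 17.9 at 48 hr and 16.8 to 18.1 at 0 hr, and edgeR's estimate was 0.03 on the log2 scale (adjusted p = 0.812). WT cells of the *Stat5a* line showed the same order at 48 hr against 0 hr, with RPKM ranges of 13.1 to 14.9 against 7.66 to 8.24 for *Socs4*, 3.20 to 3.69 against 2.45 to 2.66 for *Socs5*, 4.97 to 5.39 against 6.91 to 7.38 for *Socs6*, and 5.54 to 5.68 against 6.53 to 7.03 for *Socs7*. Over the 6 comparisons of IL-2 with 0 hr in WT cells, the log2 fold changes were 0.43 to 0.69 for *Socs4*, 0.03 to 0.97 for *Socs5*, −0.86 to −0.35 for *Socs6*, and −0.76 to −0.02 for *Socs7*. Without the shallow library the values at 4 hr in the *Stat5a* line went from 0.43 to 0.66 for *Socs4*, 0.82 to 0.99 for *Socs5*, −0.71 to −0.54 for *Socs6*, and −0.34 to −0.16 for *Socs7*. In 20 of these 24 results the adjusted p was at most 0.05 in edgeR (20 also had an unadjusted p of at most 0.05), in 0 was the change 2-fold, and DESeq2 and limma called 0. Of all genes tested, 15.7% to 36.6% were called in either direction in these 6 comparisons. The share of all genes by the adjusted p alone is not given here. In KI cells 23 of 24 results had an adjusted p of at most 0.05, and 1 was called, the rise of *Socs5* in *Stat5b* KI cells at 4 hr, which was 1.04 on the log2 scale (edgeR adjusted p = 2.49e-10). In the comparisons of IL-2 with 0 hr in KI cells, 13.8% to 26% of all genes were called in either direction.

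**Figure D2:**
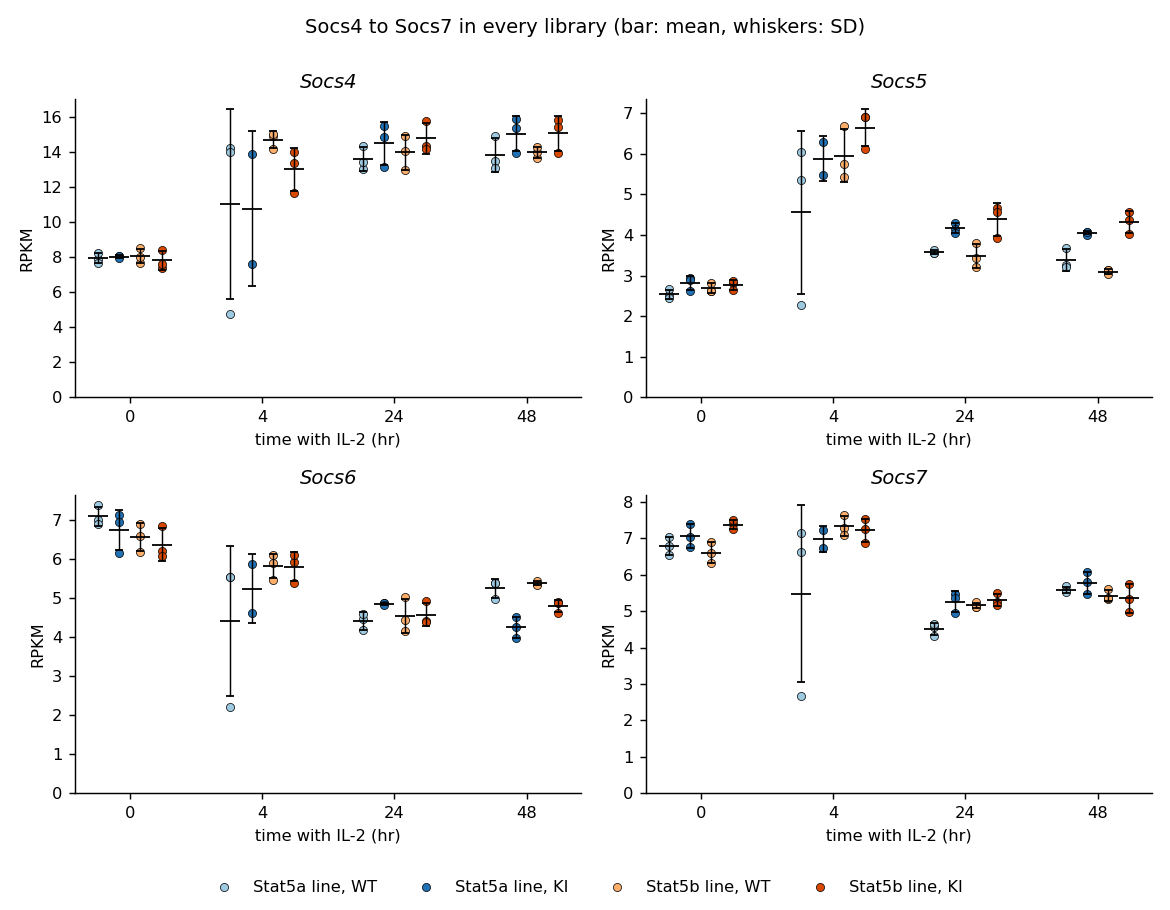
RPKM (linear axes from 0) of *Socs4*, *Socs5*, *Socs6*, and *Socs7* at 0, 4, 24, and 48 hr of IL-2, with a point for each library, a horizontal bar at the group mean, and whiskers of 1 SD, in WT and KI cells of both lines. All points lie between 2.20 and 15.9, and the lowest point of each panel at 4 hr is the shallow WT library.

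None of the 32 results of KI against WT was called for *Socs4* to *Socs7* by edgeR, where 4 had an unadjusted p of at most 0.05, and DESeq2 and limma called 0. Of all genes, 1.04% to 26.3% were called in either direction in the comparisons of KI with WT. The 4 results of *Socs5* and *Socs6* with an unadjusted p of at most 0.05 also had an adjusted p of at most 0.05 but were small. *Socs5* had a log2 fold change of 0.30 at 24 hr (adjusted p = 0.0153 from edgeR) and 0.40 at 48 hr (adjusted p = 0.00115) in *Stat5b* KI cells, with an RPKM at 48 hr of 4.02 to 4.56 in KI and 3.03 to 3.14 in WT cells, which did not overlap. For *Socs6* at 48 hr the values in KI cells were −0.36 for the *Stat5a* line (adjusted p = 0.00508 from edgeR) and −0.25 for the *Stat5b* line (adjusted p = 0.0386).

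Set beside all genes, the count of family members that rose with IL-2 was above the share of genes called. The 8 genes were chosen with earlier results of these data known, so this excess is no independent evidence. The same holds for the counts of members in the paragraphs that follow. In WT cells of the *Stat5a* line 3 of 8 members were called higher at each of 4, 24, and 48 hr (*Cish*, *Socs1*, and *Socs2*), where 10%, 8.72%, and 14.3% of all genes tested were higher. The same 3 genes were called at each time in the *Stat5b* line WT cells, where 5.83%, 9.07%, and 14.6% of all genes were higher. No member was called lower in the *Stat5a* line at 48 hr, where 22.3% of all genes were, and 1 of 8 (*Socs3*) in the *Stat5b* line, where 20.7% were. The median log2 fold change of the 8 members at the 3 times was 0.63, 0.47, and 0.40 for the *Stat5a* line and 0.83, 0.40, and 0.33 for the *Stat5b* line, beside medians of all genes of 0.01, −0.04, and −0.12 and of −0.04, −0.04, and −0.13. The 3 times of a line and genotype share the libraries at 0 hr.

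In *Stat5a* KI cells 2, 3, and 3 members were called higher at 4, 24, and 48 hr, where 6.58%, 7.36%, and 9.31% of all genes were, and *Socs2* missed the threshold at 4 hr at 0.87 on the log2 scale (edgeR adjusted p = 0.00281). In *Stat5b* KI cells the counts were 3, 3, and 2, where 4.92%, 4.59%, and 5.56% of all genes were higher. *Cish* and *Socs1* were called at all 3 times in both KI genotypes. The rise of *Socs2* in *Stat5a* KI cells at 48 hr, of 1.08 on the log2 scale, went below 2-fold without KI replicate 2 (0.99) or 3 (0.88) at 0 hr or KI replicate 1 (0.96) at 48 hr. With limma on log2(RPKM + 1) this rise was also below 2-fold, at 0.963. *Cish* rose in *Stat5b* KI cells by log2 fold changes of 1.83, 1.12, and 1.497 and *Socs1* by 1.5, 1.52, and 2.00. *Socs2* rose by 1.46 at 24 hr, and at 4 and 48 hr its log2 fold changes were 0.96 and 0.66 (adjusted p = 0.000329 and 0.0105 from edgeR). *Socs3* in these cells had values of −0.60, −0.50, and −0.54, none of them 2-fold.

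**Figure D3:**
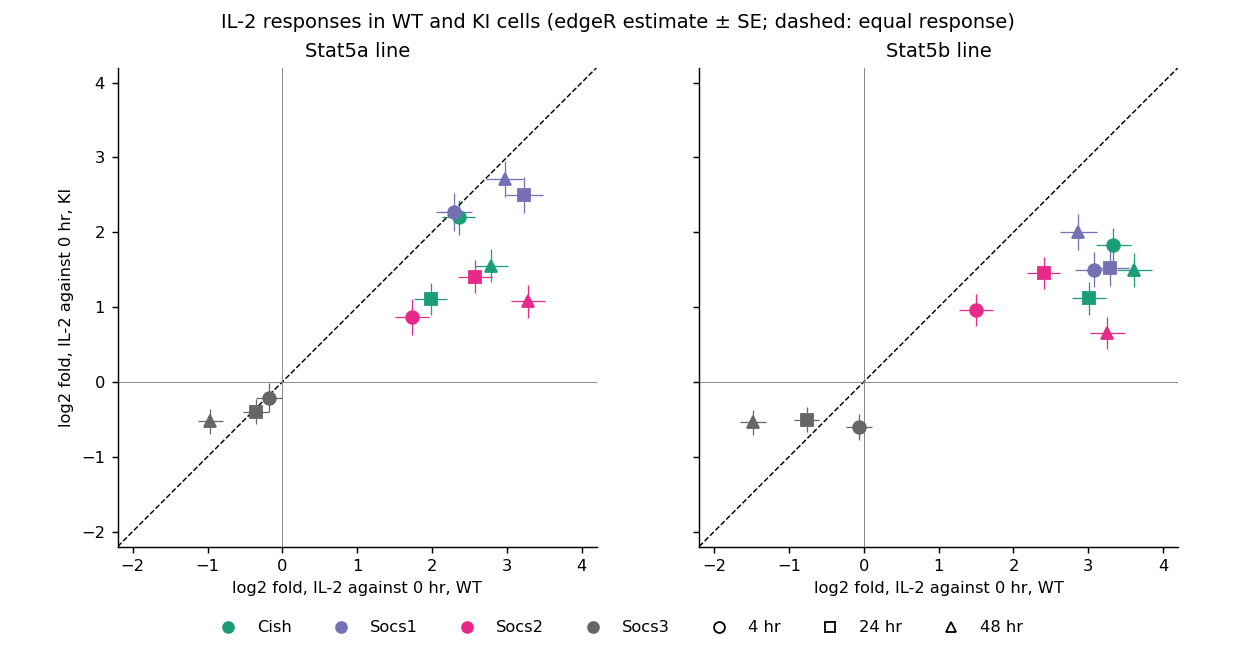
Log2 fold change of IL-2 against 0 hr in KI cells (vertical axis) and in WT cells (horizontal axis) for *Cish*, *Socs1*, *Socs2*, and *Socs3* at 4, 24, and 48 hr, in a panel for each line, with bars of 1 SE from edgeR and a dashed line of equal response. *Cish* in the *Stat5b* line lies at 3.01 to 3.61 in WT and 1.12 to 1.83 in KI cells, below the dashed line, and *Socs3* at 48 hr lies to the left of 0 in both panels.

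Comparing KI with WT directly, 0 of 8 members were called at 0 hr in either line, where 1.04% of all genes in the *Stat5a* and 7.98% in the *Stat5b* line were called in either direction. By an unadjusted p of at most 0.05 in edgeR these counts were 1 and 2, and DESeq2 and limma called 0. In *Stat5a* KI cells 0 were called at 4 hr and at 24 hr, where 6.63% and 4.45% of all genes were, with 0 and 3 at an unadjusted p of at most 0.05 in edgeR and 0 called by DESeq2 and limma. At 48 hr 2 of 8 members (*Cish* and *Socs2*) were lower in *Stat5a* KI cells, where 2.43% of all genes were lower. In *Stat5b* KI cells 3 members (*Cish*, *Socs1*, and *Socs3* at the threshold) were lower at 4 hr, where 1.23% of all genes were, 2 (*Cish* and *Socs1*) at 24 hr, where 5.77% were, and 2 (*Cish* and *Socs2*) at 48 hr, where 9.81% were. The median of the 8 members at 4, 24, and 48 hr was −0.21, −0.10, and −0.17 in *Stat5b* KI cells, beside −0.03, 0.07, and 0.10 over all genes, and −0.07, −0.07, and −0.04 in *Stat5a* KI cells, beside 0.04, 0.01, and 0.04.

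**Figure D4:**
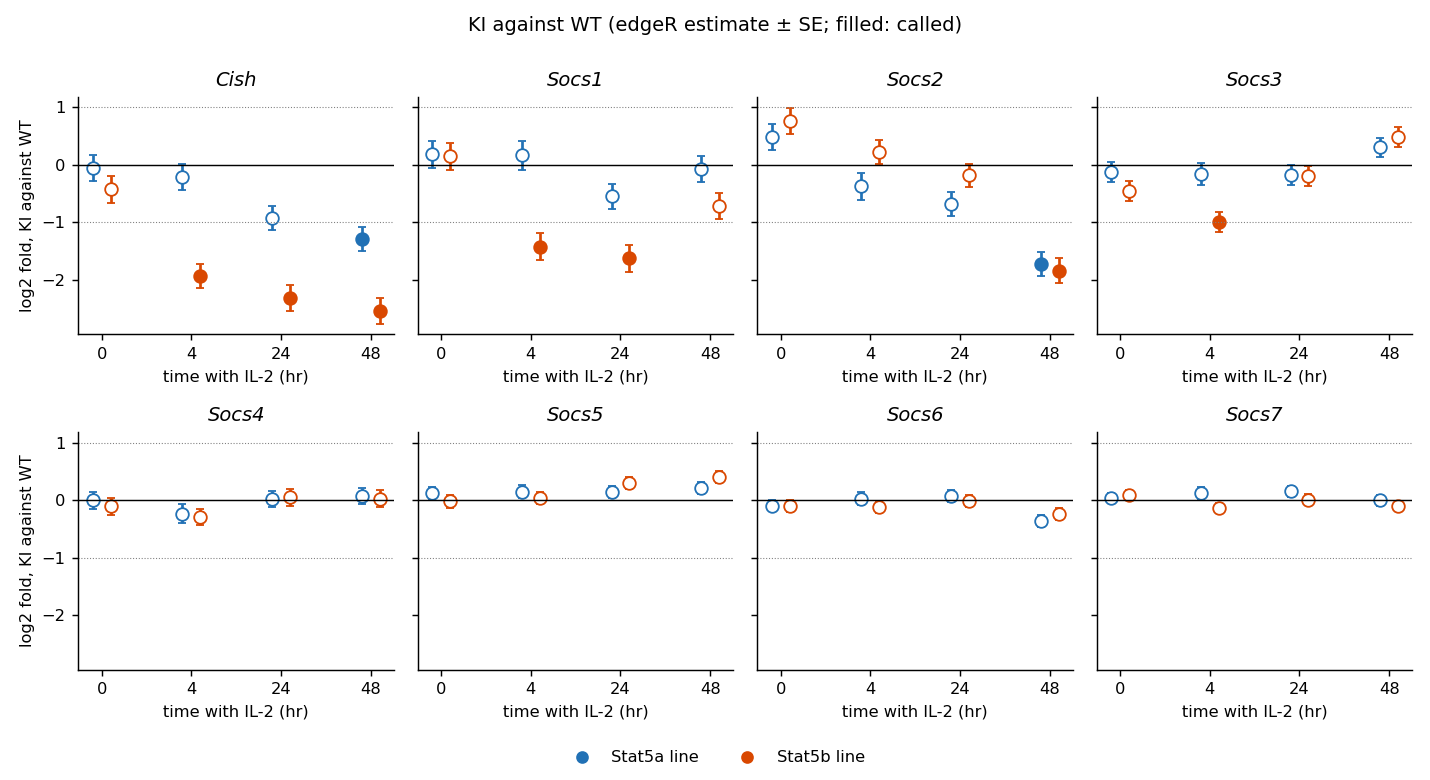
Log2 fold change of each of the 8 genes in KI against WT cells at 0, 4, 24, and 48 hr in both lines, with bars of 1 SE from edgeR, a solid line at 0, dotted lines at the 2-fold threshold, and called results filled. *Cish* in the *Stat5b* line is at −0.43 at 0 hr and −2.54 at 48 hr, and *Socs2* at 0.22 at 4 hr and −1.84 at 48 hr.

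The difference of the IL-2 responses asks whether the change of a gene from its own level at 0 hr differed in the KI genotype. In the *Stat5b* line the response of *Cish* was lower in KI cells by 1.51 on the log2 scale at 4 hr, with a log2 difference of −1.51 (SE 0.312, adjusted p = 0.00371 from edgeR), −1.89 (SE 0.314, adjusted p = 8.64e-06) at 24 hr, and −2.12 (SE 0.313, adjusted p = 5.54e-07) at 48 hr. For *Socs1* the differences were −1.57 (SE 0.329, adjusted p = 0.00408 from edgeR) at 4 hr and −1.78 (SE 0.329, adjusted p = 4.51e-05) at 24 hr, and at 48 hr −0.87 (adjusted p = 0.0266), which was not 2-fold. At 4 hr both calls rest on the setting. With limma on log2(RPKM + 1) that of *Socs1* was lost (adjusted p = 0.0641), with limma on log2(RPKM + 0.1) both were (adjusted p = 0.0597 for *Cish* and 0.11 for *Socs1*), and so they were in edgeR with all 48 libraries (adjusted p = 0.0839 and 0.34). For *Socs2* the difference was −2.60 (SE 0.308, adjusted p = 6.54e-09 from edgeR) at 48 hr, and −0.94 (adjusted p = 0.0143) at 24 hr. *Socs3* had a difference of 0.94 (SE 0.242, adjusted p = 0.00141 from edgeR) at 48 hr, where it had gone down in WT cells, and this was not 2-fold. Thus 2 of 8 members were called lower at each time, where 0.514%, 6.66%, and 11.1% of all genes were lower. In the *Stat5a* line, the difference was −2.21 (SE 0.310, adjusted p = 1.83e-06 from edgeR) for *Socs2* and −1.24 (SE 0.302, adjusted p = 0.002) for *Cish* at 48 hr, where 3.09% of all genes were lower, and −1.17 (SE 0.309, adjusted p = 0.02) for *Socs2* at 24 hr, where 1.31% were. At 4 hr 0 of 8 were called by edgeR, where 0.34% of all genes were called in either direction, 1 had an unadjusted p of at most 0.05, and DESeq2 and limma called 0. The difference of *Cish* at 48 hr in this line rests in part on WT replicate 3 at 0 hr, where *Cish* was at 3.20 against 8.04 and 8.24, and without it was −0.93 (adjusted p = 0.00315 from edgeR). That of *Socs2* at 24 hr lost its call with limma on log2(RPKM + 1) (−0.85) and on log2(RPKM + 0.1) (adjusted p = 0.0521), and in edgeR with all 48 libraries (adjusted p = 0.0903), with the libraries of 1 line (adjusted p = 0.121), and without any 1 of 5 libraries, *Stat5a* WT replicate 1 (−0.98, edgeR adjusted p = 0.0738) or KI replicate 1 (−0.85, edgeR adjusted p = 0.142) at 0 hr, or WT replicate 2 (−1.11, edgeR adjusted p = 0.0599), KI replicate 2 (−1.15, edgeR adjusted p = 0.0514) or KI replicate 3 (−0.97, edgeR adjusted p = 0.0797) at 24 hr.

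The KI effects of the lines were compared as *Stat5b* minus *Stat5a*, which uses separate WT and KI libraries on each side. *Cish* was lowered more in the *Stat5b* line, with a difference of log2 fold changes of −1.72 (SE 0.310, adjusted p = 0.00206 from edgeR) at 4 hr, −1.39 (SE 0.298, adjusted p = 0.00113) at 24 hr, and −1.25 (SE 0.295, adjusted p = 0.00461) at 48 hr. *Socs1* differed by −1.59 (SE 0.336, adjusted p = 0.00601 from edgeR) at 4 hr and by −1.08 (SE 0.318, adjusted p = 0.0186) at 24 hr, and had a value of −0.65 at 48 hr (adjusted p = 0.199). The value of *Socs1* at 24 hr lost its call without *Stat5b* KI replicate 1 at 24 hr (adjusted p = 0.0512 from edgeR). Without the shallow *Stat5a* line WT library at 4 hr these differences were −1.49 for *Cish* (adjusted p = 0.00257 from edgeR) and −1.22 for *Socs1* (adjusted p = 0.00278). Thus 2, 2, and 1 of 8 members were called lower at 4, 24, and 48 hr, where 0.392%, 1.27%, and 0.514% of all genes were, and at 0 hr 0 were called by edgeR, where 0.0964% of all genes were called in either direction, 0 had an unadjusted p of at most 0.05, and DESeq2 and limma called 0. *Socs2* at 48 hr had a difference of −0.12 (SE 0.292, adjusted p = 0.854 from edgeR), after log2 fold changes of −1.72 and −1.84 in the lines, which at this SE does not show that the lines act alike. *Socs3* had a difference of −0.84 (adjusted p = 0.0321 from edgeR) at 4 hr, and −0.56 without the shallow library. With all 48 libraries the calls of *Socs1* at 4 and 24 hr (adjusted p = 0.153 and 0.315 from edgeR) and of *Cish* at 48 hr (adjusted p = 0.0702 from edgeR) were lost. The call of *Socs1* at 24 hr was lost with limma on log2(RPKM + 1) (adjusted p = 0.0841) and on log2(RPKM + 0.1) (adjusted p = 0.107), and that of *Cish* at 48 hr with the latter (adjusted p = 0.0631).

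Markers of the isolated cells and of other spleen cells were read in the same libraries. The 6 of 7 listed CD8 T cell markers found in the tables (*Cd8b1* the most abundant) summed to an RPKM of 1197 to 1233 in WT and 1674 to 1860 in KI cells of the *Stat5b* line at 48 hr, and to 1233 to 1354 and 1678 to 1834 in the *Stat5a* line, so markers of the labelled cells were abundant throughout. None of the 6 was called at 48 hr by edgeR in either line, where 5 had an unadjusted p of at most 0.05 in each, and their median log2 fold changes in KI cells were 0.46 and 0.35 in the *Stat5b* and *Stat5a* lines. Of all genes, 26.3% in the *Stat5b* and 8.78% in the *Stat5a* line were called in either direction at that time. The 8 B cell markers (*Cd79a* the most abundant) were all called higher in KI than in WT libraries of the *Stat5b* line at each of the 4 times, where 7.38%, 9.2%, 10.9%, and 16.5% of all genes were higher. Their summed RPKM at 48 hr in the *Stat5b* line was 13.3, 11.7, and 13.9 in the WT and 129.8, 126.5, and 132.5 in the KI libraries, and none of them was at 0. The median log2 fold change of the list at 48 hr was 3.78 in the *Stat5b* and 2.04 in the *Stat5a* line, beside 0.10 and 0.04 over all genes. In the *Stat5a* line 3, 4, 8, and 8 of the 8 were called higher at 0, 4, 24, and 48 hr, where 0.861%, 2.47%, 3.21%, and 6.35% of all genes were, with sums at 48 hr of 40.0, 32.7, and 13.6 in WT and 115.2, 102.1, and 122.1 in KI cells.

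The 10 macrophage and monocyte markers (*Lyz2* the most abundant) were all called higher in KI cells at 48 hr in both lines, where 6.35% (*Stat5a*) and 16.5% (*Stat5b*) of all genes were, with sums of 3.30, 3.17, and 4.46 in WT and 107.3, 67.1, and 88.7 in KI libraries of the *Stat5b* line and of 7.73, 6.10, and 3.05 and 69.9, 24.9, and 24.3 in the *Stat5a* line. *Trem2* was at 0 in all 3 WT libraries of the *Stat5b* line, and *Csf1r*, *C1qa*, and *C1qb* in 1 of them each. The 6 erythroid markers (*Hbb-bs* the most abundant) were all called higher in *Stat5b* KI cells at each time, where 7.38%, 9.2%, 10.9%, and 16.5% of all genes were, with sums of 4.71, 5.63, and 8.27 in WT and 206.1, 110.8, and 170.0 in KI libraries at 48 hr. In *Stat5a* KI cells 0 of the 6 were called by edgeR at each time. There 1.04%, 6.63%, 4.45%, and 8.78% of all genes were called in either direction. By an unadjusted p of at most 0.05 in edgeR the erythroid counts were 0, 1, 0, and 3. Their sums at 48 hr in the *Stat5a* line were 6.4 to 8.02 in WT and 17.9 to 22.5 in KI libraries. At 0 hr, when none of the 8 family genes was called between the genotypes, the B cell sums in the *Stat5b* line were already 57.5 to 65.5 in WT and 232.5 to 239.5 in KI cells. The CD8 sums at 0 hr in that line were 1294 to 1467 in WT and 1081 to 1152 in KI cells. These markers moved with genotype beside the differences of *Cish*, *Socs1*, *Socs2*, and *Socs3* above, and their part in those differences was not tested.

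**Figure D5:**
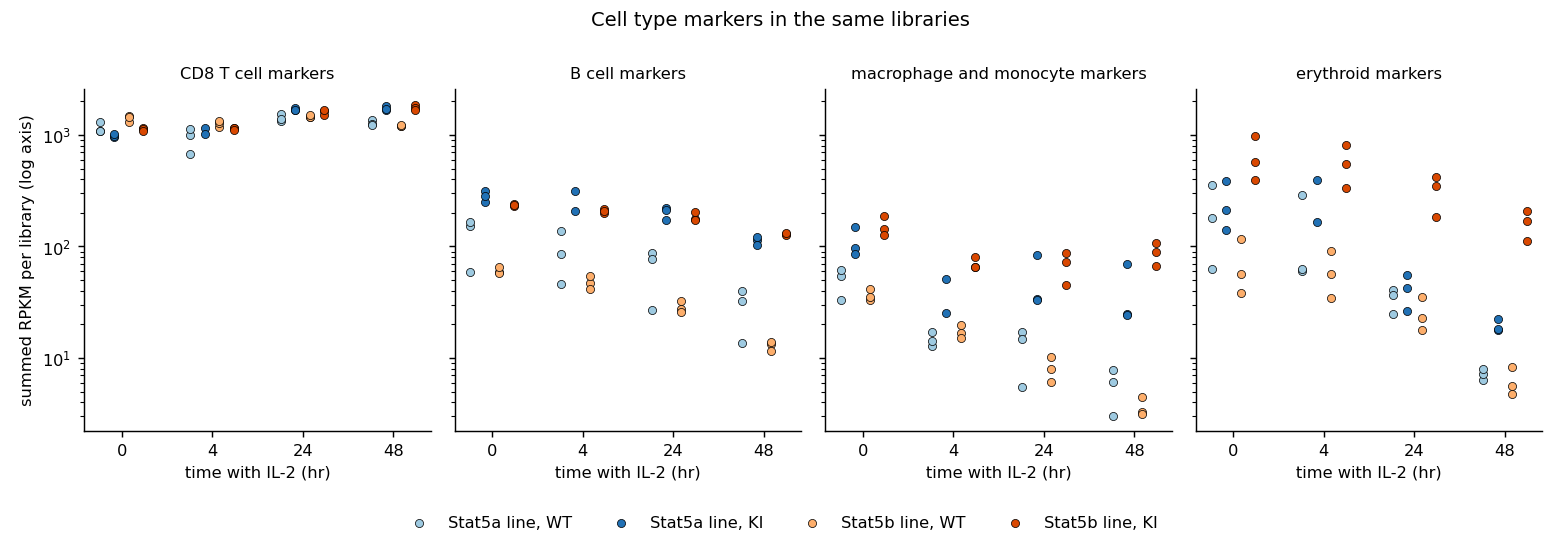
Summed RPKM (log axis) of the CD8 T cell, B cell, macrophage and monocyte, and erythroid marker lists at 0, 4, 24, and 48 hr, with a point for each library of WT and KI cells of both lines. The CD8 sums lie between 668.9 and 1860, and at 48 hr in the *Stat5b* line the B cell sums are 11.7 to 13.9 in WT and 126.5 to 132.5 in KI cells.

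Markers of T cell states are set beside the shares of all genes at 48 hr, of which 16.5% were higher and 9.81% lower in *Stat5b* KI cells and 6.35% higher and 2.43% lower in *Stat5a* KI cells. Of 8 memory-phenotype CD8 T cell markers (*Ccl5* the most abundant), 4 were called lower (*Eomes*, *Il2rb*, *Ly6c2*, and *Tbx21*) and 2 higher (*Ccl5* and *Klrg1*) in *Stat5b* KI cells at 48 hr, and 1 lower (*Eomes*) in *Stat5a* KI cells. Of 7 naive T cell markers, 5 were higher in *Stat5b* KI (*Il7r*, *Klf2*, *Lef1*, *S1pr1*, and *Tcf7*) and 1 in *Stat5a* KI cells (*Klf2*). Of 6 NK cell markers (*Tyrobp* the most abundant) 4 were higher and 1 lower in *Stat5b* KI cells, and 1 higher in *Stat5a* KI cells. Of 5 CD4 T cell markers (*Ctla4* the most abundant) 3 were higher in *Stat5b* KI and 2 in *Stat5a* KI cells. The part of these markers in the values of the *Socs* genes was not tested either.

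Among the 12 components of the IL-2 receptor and the JAK-STAT pathway, 3 were called higher and 1 lower with IL-2 at 48 hr in WT cells of each line, where 14.3% of all genes were higher and 22.3% lower in the *Stat5a* and 14.6% and 20.7% in the *Stat5b* line. *Il2ra*, the inducible high-affinity chain of the receptor, rose by log2 fold changes of 3.72 and 4.59 in the *Stat5a* and *Stat5b* lines, and *Il2rb*, the chain that docks STAT5, by 1.34 and 1.09, while *Jak2* fell by 1.00 and 1.04. In KI cells at 48 hr *Il2ra* fell by 2.09 in the *Stat5a* (adjusted p = 1.14e-05 from edgeR) and by 2.54 in the *Stat5b* line (adjusted p = 1.88e-07), and *Il2rb* fell by 1.55 in the *Stat5b* line (adjusted p = 1.19e-10) and had −0.83 in the *Stat5a* line. The RPKM of *Il2ra* at 48 hr in the *Stat5b* line was 55.3 to 63.0 in WT and 9.21 to 11.9 in KI cells, and that of *Il2rb* 386.9 to 397.2 and 119.5 to 160.9. *Il2rb* also differed at 0 hr in that line, at 155.7 to 169.1 in WT and 86.2 to 99.6 in KI cells. The kinases of the receptor, *Jak1* and *Jak3*, had log2 fold changes of 0.55 and −0.09 in *Stat5b* KI cells at 48 hr and of 0.26 and 0.07 in *Stat5a* KI cells. The members *Il2rg*, *Jak2*, *Tyk2*, *Stat3*, *Stat5a*, *Stat5b*, and *Stat6* had values of −0.05, 0.61, 0.20, −0.02, 0.12, 0.47, and 0.17 in *Stat5b* KI cells, none called.

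Of 13 other negative regulators of JAK-STAT signalling, such as phosphatases and PIAS proteins, *Usp18*, an interferon-induced inhibitor of interferon receptor signalling, was the one called higher with IL-2 at 48 hr in WT cells, where 14.3% and 14.6% of all genes were, with log2 fold changes of 1.56 and 1.36. In KI against WT cells at 48 hr 0 of 13 were called by edgeR in either line, where 8.78% and 26.3% of all genes were called in either direction, with 6 at an unadjusted p of at most 0.05 in each and medians of −0.01 in the *Stat5a* and −0.05 in the *Stat5b* line. Of 8 cullin ligase partners of the SOCS box, 2 were called higher with IL-2 at 48 hr in the *Stat5a* and 3 in the *Stat5b* line, where 14.3% and 14.6% of all genes were, among them the cullin gene *Cul2* (1.24 and 1.28) and the RING gene *Rbx1* (1.04 and 1.15). *Cul2* and *Tceb1*, which encodes elongin C, fell by 1.01 and 1.03 in *Stat5b* KI cells at 48 hr, where the median of the list was −0.63. The list also holds the cullin gene *Cul5* and the RING gene *Rnf7*, whose values are not given here. Which cullin and RING protein the SOCS proteins use in these cells was not tested. Of 15 other SOCS box genes, 4 in the *Stat5a* and 3 in the *Stat5b* line were lower with IL-2 at 48 hr in WT cells, about the share of all genes, which was 22.3% and 20.7%. *Spsb1* fell by 1.78 and 2.25 with IL-2 and was higher in KI cells, by log2 fold changes of 1.21 and 2.43 in the *Stat5a* and *Stat5b* lines. *Vhl*, the substrate receptor for hypoxia-inducible factors, fell by 1.06 and 1.19 with IL-2. *Spsb4* was also called but had counts near 0, and no fold is given.

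Of 9 STAT5 target genes that the study names, a list chosen on these samples and so no independent evidence of its direction, 7 were higher with IL-2 at 48 hr in WT cells of each line, where 14.3% and 14.6% of all genes were. Against WT, KI cells at 48 hr had 6 of them lower (*Stat5a* line) and 7 lower (*Stat5b* line), where 2.43% and 9.81% of all genes were, and *Il2rb*, also a memory-phenotype marker and a receptor chain above, is among them. The study names *Cish* and *Socs2* with these genes, so that the same caution holds for their direction. The median log2 fold change of the 9 listed genes in KI cells was −1.49 and −2.53 in the *Stat5a* and *Stat5b* lines. *Gzmb*, which encodes granzyme B, rose by log2 fold changes of 7.35 and 7.16 with IL-2 and fell by 4.30 in *Stat5b* KI cells, and *Lif*, a cytokine of the IL-6 family, rose by 6.44 and 7.26 and fell by 4.05. *Il6ra* and *Il6st*, which encode chains of the IL-6 receptor, fell by 1.65 and 1.23 with IL-2 in the *Stat5b* line and were higher by 1.09 and 1.04 in *Stat5b* KI cells. Of 14 further cytokine-induced STAT target genes, 7 were higher with IL-2 at 48 hr in WT cells of each line, beside the same shares of all genes (14.3% and 14.6%), and 2 were lower in the *Stat5a* and 1 in the *Stat5b* line, where 22.3% and 20.7% of all genes were. *Osm*, the cytokine oncostatin M, rose by 3.89 and 3.84 and the survival gene *Bcl2l1* by 2.37 and 2.33, and they fell by 2.18 and 1.66 in *Stat5b* KI cells. *Bcl6*, a transcriptional repressor, fell by 2.84 and 3.13 with IL-2 and was higher by 2.51 in *Stat5b* KI cells, and *Pim1*, a kinase gene, fell by 1.16 with IL-2 in the *Stat5a* line. At 48 hr 4 of the 14 were lower and 1 higher in *Stat5b* KI cells, where 9.81% of all genes were lower and 16.5% higher, with a median of −0.57. For *Stat5a* KI cells the counts were 1 lower and 1 higher, beside 2.43% and 6.35% of all genes, with a median of −0.25.

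The profiles of the 8 genes over the 16 group means of log2 CPM (reads scaled to the size of the library) were compared as a description, since the groups share lines, libraries at 0 hr, and times. *Cish* and *Socs1* had a Pearson correlation of 0.871, *Cish* and *Socs2* one of 0.721, and *Socs1* and *Socs2* one of 0.803. *Socs4* followed *Socs1* at 0.868, and *Socs6* and *Socs7* went together at 0.87. *Socs3* had negative values with *Cish* (−0.419), *Socs1* (−0.511), and *Socs2* (−0.741). Among the other genes tested, the profiles most like *Cish* were those of *Rras2* (0.973), *Bbs7* (0.97), and *Usp49* (0.968), and those most like *Socs1* were *Tefm* (0.981), *B3galt6* (0.98), and *Thap7* (0.974). For *Socs2* they were *Pigg* (0.947), *Trdmt1* (0.944), and *9930014A18Rik* (0.943), and for *Socs3* *Rpl17* (0.923), *Zscan25* (0.92), and *Rpl13a* (0.919). *Bbs7* is near the low end of measurable expression, with a lowest group mean of −0.81 log2 CPM.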

How the data were processed

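The authors isolated splenic CD8+ T cells, prepared mRNA libraries, and sequenced single-end reads. Per the submitters' processing notes, alignment to mm10/GRCm38 used TopHat2 2.0.11 and Bowtie2 2.2.6, with SAMtools 0.1.8 and bedtools 2.25.0 among the tools. The deposited files hold a raw read count for each RefSeq transcript, and the RPKM that the authors made from it by dividing by transcript length and the mapped reads of the library. Reads on exons that several isoforms share enter the count of each of them. The counting program and the use of strand are not given in the sources used here, so that values of overlapping genes are uncertain.

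The longest transcript of each symbol was used, over 47 libraries. The lowest, median, and highest total reads per library are given in the text, and 3 reads correspond to 0.0498 to 0.173 CPM, which covers counting error only. No 2 libraries of a group agreed within sampling noise (chi-square of 4.83 to 220.7 per gene over 46 pairs). Counts were fitted with edgeR 4.0.16 in R 4.3.3 (TMM, filterByExpr with a minimum count of 10, quasi-likelihood test, 1 mean for each group, no covariate), and a call needed a 2-fold change and a p, adjusted by Benjamini-Hochberg, no higher than 0.05. The fit was tested on simulated data. Alternatives were all 48 libraries, DESeq2 1.42.0, its size factors used in edgeR, no filter on low counts, limma 3.58.1 on log2(RPKM + 1) and log2(RPKM + 0.1), the transcript with the highest mean count, the libraries of the line concerned, the replicate number as a block, the adjusted p alone, and each library left out in turn.

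Same-numbered libraries deviated together in every pair (correlation over 0.1, from their deviations from the group means, at least 3 pairs) in 2 of the 12 comparisons of IL-2 with 0 hr, both of *Stat5a* line WT cells, at 24 hr (0.206, 0.273, and 0.419) and 48 hr (0.166, 0.117, and 0.192), and in 0 of the 8 comparisons of KI with WT. The comparison of *Stat5a* KI cells at 4 hr with 0 hr has 2 pairs (0.161 and 0.181). The labels say nothing of what a number marks.

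The 8 genes and all gene lists were chosen with earlier results of these data known. Genes named beside the 8 follow a rule: every component of the IL-2 receptor and JAK-STAT list, the 2 largest rises and the 2 largest falls among called genes of each other list in WT cells at 48 hr and in *Stat5b* KI against WT cells at 48 hr, the most abundant gene of each marker list, and the 3 genes most correlated with each of *Cish*, *Socs1*, *Socs2*, and *Socs3*. Marker genes named among those called or at 0, and list genes given in a further comparison, were chosen after their values were seen. Of the genes this rule names, 2 are not reported here. Sequences are from the RefSeq tables of GRCm38.p6. The STAT5 ChIP-seq was not analysed here. Tables were handled in pandas 2.3.3 and numpy 2.4.6 under Python 3.11.15, and plots in matplotlib 3.10.9.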

Additional observations from a re-analysis of the deposited data

Results flagged for a closer look

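The results that a reader may want to look at again are those where a difference between the effects of genotype or between the lines was itself tested and passed, with the values of edgeR's quasi-likelihood test repeated here from the report. The IL-2 response differed between KI and WT cells of the *Stat5b* line for *Cish* by −1.51, −1.89, and −2.12 on the log2 scale at 4, 24, and 48 hr, for *Socs1* by −1.57 and −1.78 at 4 and 24 hr, and for *Socs2* by −2.60 at 48 hr. In the *Stat5a* line it differed for *Socs2* by −1.17 and −2.21 at 24 and 48 hr and for *Cish* by −1.24 at 48 hr. The KI effect differed between the lines (*Stat5b* minus *Stat5a*) for *Cish* by −1.72, −1.39, and −1.25 at 4, 24, and 48 hr and for *Socs1* by −1.59 and −1.08 at 4 and 24 hr. Of these, the responses at 4 hr of *Cish* and *Socs1* in the *Stat5b* line, those of *Socs2* at 24 hr and *Cish* at 48 hr in the *Stat5a* line, and the differences between the lines of *Socs1* at 4 and 24 hr and *Cish* at 48 hr lost their call under at least 1 alternative named in the report. The 3 times of a line share their libraries at 0 hr, and the lines share none.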

How the results depend on the processing

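Of the 240 results of the 8 genes, 58 were called, and 49 of these were called under each of up to 56 alternatives (47 of them a left-out library). The other 9 were lost under at least 1, and 0 of the 58 changed sign, while 12 uncalled results were called under at least 1. With the adjusted p alone as the threshold, the counts of called results rose from 19 to 41 of 48 for IL-2 in WT cells, from 16 to 46 of 48 in KI cells, and from 9 to 19 of 64 for KI against WT. The share of all genes that pass by the adjusted p alone is not given, so these higher counts do not set the family apart from other genes. For the difference between the lines the count of 5 of 32 became 2 with all 48 libraries and 3 with limma on log2(RPKM + 0.1). With each library left out in turn the counts ranged over 19 to 20, 15 to 17, and 8 to 9 for these 3 comparisons, 8 to 10 for the difference of IL-2 responses (9 in the report), and 4 to 6 for the lines. With the replicate number as a block the counts were 19, 16, 9, 10, and 5. The block lost 0 calls and gained 1, the difference of the *Socs2* response at 4 hr in the *Stat5a* line (−1.04). In the 2 paired comparisons it changed no call.

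No called result reversed, and the reversed values below belong to uncalled results near 0, whose cause was not tested. With limma on log2(RPKM + 1) and log2(RPKM + 0.1), in the *Stat5a* line, *Socs3* with IL-2 at 4 hr in KI cells became 0.025 and 0.026, the difference of responses at 4 hr became 0.088 and 0.072 for *Cish* and 0.423 and 0.425 for *Socs1*, *Cish* in KI against WT cells became 0.053 and 0.079 at 0 hr and 0.14 and 0.15 at 4 hr, and *Socs3* at 4 hr 0.22 and 0.24. In the *Stat5b* line *Socs3* with IL-2 at 4 hr in WT cells became 0.13 and 0.14. The block gave 0.035 for the *Socs1* response at 4 hr in the *Stat5a* line, and all 48 libraries gave −0.23 for *Socs1* in *Stat5a* KI cells at 4 hr. With 1 library left out, KI against WT in the *Stat5a* line ranged at 0 hr from −0.41 to 0.17 for *Cish*, −0.034 to 0.40 for *Socs1*, and −0.31 to 0.083 for *Socs3*, and at 4 hr from −0.20 to 0.42 for *Socs1* and −0.44 to 0.089 for *Socs3*. *Socs1* in *Stat5b* KI cells at 0 hr ranged from −0.12 to 0.33. The response at 4 hr in the *Stat5a* line ranged from −0.40 to 0.17 for *Cish* and −0.39 to 0.24 for *Socs1*, *Socs3* with IL-2 at 4 hr in WT cells from −0.41 to 0.10 in the *Stat5a* and −0.17 to 0.16 in the *Stat5b* line, and *Socs2* between the lines at 48 hr from −0.21 to 0.053. The limma settings moved the median of all genes by −0.201 to 0.311. Each gene had at least 110 reads in each of the 47 libraries. Counting error was still not small beside the spread between libraries in every group. Values at 4 hr in the *Stat5a* line also moved with the shallow library.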
